A study of Mus musculus with 6 samples.

Results

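The genes described here are those of the collagen family: the protein-coding genes of the deposited count table whose symbol has the form Col, a number, the letter a and a number. The rule found 44 genes among 19288 in the table. All 44 symbols matched the reference annotation of GRCm38 by gene ID. By the kind of structure that their products form, 11 are fibrillar, 8 belong to basement membranes, 4 are transmembrane, 9 are fibril-associated, 6 form beaded filaments, 3 form short-chain networks and 3 were placed in a remaining class.

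Collagens are secreted or membrane-bound proteins made of chains that wind around each other as a triple helix, in which glycine recurs at regular steps along each chain. Fibrillar collagens assemble into the tensile fibrils of connective tissue, type IV chains form the sheet-like network under endothelium and epithelium, and transmembrane collagens stay anchored in the cell surface. In tumours, fibroblasts of the stroma are known as the main source of fibrillar collagen, while endothelial cells and pericytes lay down much of the basement membrane.

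The samples were tumours grown under the skin from LLC1 cells, an established line that began as a Lewis lung carcinoma in a C57BL/6 mouse. Hosts were beta-hCG transgenic offspring of C57BL/6 females (CB57BL/6 in the labels) and transgenic FVB males, so all 3 groups carry the transgene, and the labels used here name neither its promoter nor the animals' age. Progesterone tumours came from ovariectomized hosts given progesterone, vehicle tumours from ovariectomized hosts given vehicle, and transgenic tumours from hosts with no ovariectomy or supplementation named. Supplementation went on for 28 days, and all tumours were collected on day 30 from implantation. Each group has 2 libraries, and the labels do not say that they came from separate animals, so p-values measure only the spread between these libraries. The comparison of vehicle with transgenic tumours joins ovariectomy and vehicle, which cannot be told apart, and the 3 comparisons share libraries. In the same way, progesterone against transgenic tumours joins ovariectomy and progesterone, which cannot be told apart. RNA of the mouse tumour cells and of the mouse host cells was counted together, and fewer cells of a type and less RNA per cell cannot be told apart in such bulk samples.

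Library totals ran from 19526775 to 30083925 counts, and the 3 counts that an observed 0 still allows are worth 0.103 to 0.159 CPM by library. CPM are counts brought to a common library size, here with TMM scaling factors. These limits cover counting error only. Libraries of 1 group differed beyond sampling noise: chi-square divided by its degrees of freedom was 66.7 for the progesterone, 40.4 for the vehicle and 100.4 for the transgenic pair. Of 10 markers of epithelium and lung lineage, 8 were in the table, and the alveolar and airway markers Sftpc and Scgb1a1 were at 0 in 4 and 5 of the 6 libraries. The keratins Krt8 and Krt18 were present at 134.8 and 125 CPM or more in each of the 6. Cdh1 ran from 1.70 to 3.44 CPM and Napsa from 1.64 to 4.48 CPM. Krt7 and Epcam reached at most 0.206 and 0.222 CPM and did not pass the filter on low counts.

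In their coding sequences the fibrillar genes differed from the other classes, with no use of the expression values. The classes were assigned by the structure of the products, so this describes them and is not independent support for them. In the longest annotated reading frame of each gene, unbroken runs of codon triplets that begin with a glycine codon (GGN) were counted, with 3 triplets as the shortest run. The longest run had 216 to 344 triplets (median 338) in the 11 fibrillar genes, which had 2 to 5 runs each. It had 30 to 66 triplets in the 8 basement membrane genes, in 13 to 27 runs, and 40 to 55 in the 4 transmembrane genes, in 5 to 22 runs. The basement membrane and transmembrane classes overlapped in the longest run and in the number of runs. The longest runs of the fibrillar class did not overlap those of either. Within it, Col24a1 and Col27a1 had the shortest main runs, of 216 and 217 triplets.

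**Figure D1:**
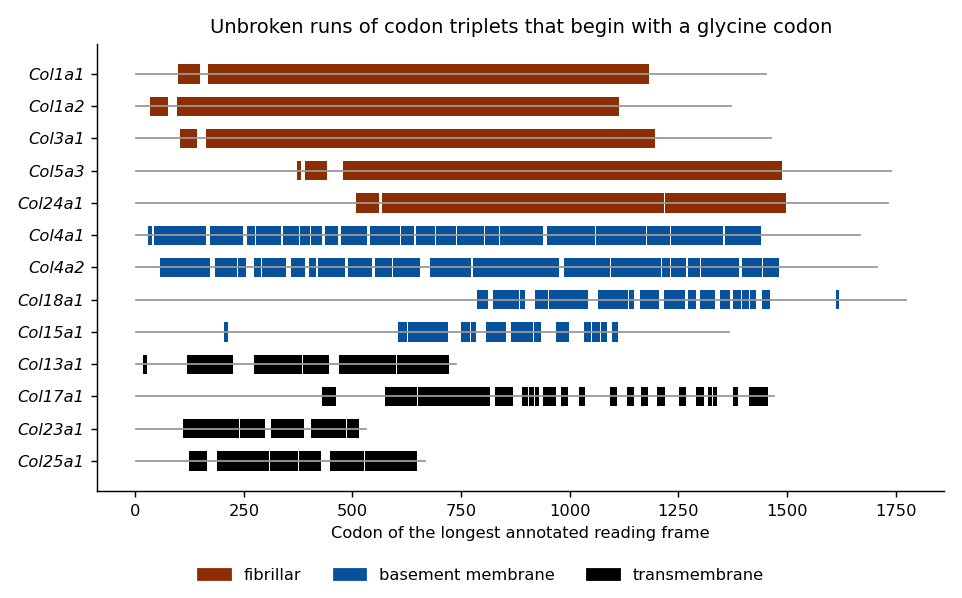
Runs of glycine-first codon triplets (blocks) along the longest annotated reading frame (grey line, in codons) of 13 collagen genes in 3 classes. The 5 fibrillar genes shown have a main run of 216 to 344 triplets, while the longest runs of the basement membrane and transmembrane genes have 30 to 66.

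Of the 44 genes, 33 passed the filter on low counts, among 13632 genes tested. They were 10 of 11 fibrillar, 5 of 8 basement membrane, 4 of 4 transmembrane, 6 of 9 fibril-associated and 4 of 6 beaded filament genes, with 1 of 3 in the short-chain and 3 of 3 in the remaining class. The 11 that did not pass (Col4a3, Col4a4, Col4a6, Col6a5, Col6a6, Col8a2, Col9a1, Col9a2, Col10a1, Col11a1 and Col22a1) reached at most 1.32 CPM in any library. Together the 44 genes took between 0.604% and 1.56% of all counts in a library.

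Collagen levels spread widely between the 6 libraries. Among the 32 collagens tested with a count in every library, the highest library was a median of 4.04 times the lowest, against 1.62 times over the 13525 such genes of all kinds, which were not matched for level. The factor exceeded 10 for 8 of the 32 collagens (25.0%) and for 4.73% of all genes. The 8 were Col1a1, Col1a2, Col4a5, Col5a2, Col14a1, Col23a1, Col25a1 and Col28a1, of which Col25a1 and Col28a1 had lowest libraries of 1 and 2 counts. Without progesterone library 2 the count was 5, and without any other single library 7 or 8. Progesterone library 1 was the lowest of the 6 for 15 of 33 collagens (45.5%), against 18.6% of all genes, and progesterone library 2 and vehicle library 2 were each the highest for 10 collagens (30.3%), against 17.3% and 11.0% of all genes in that order.

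**Figure D2:**
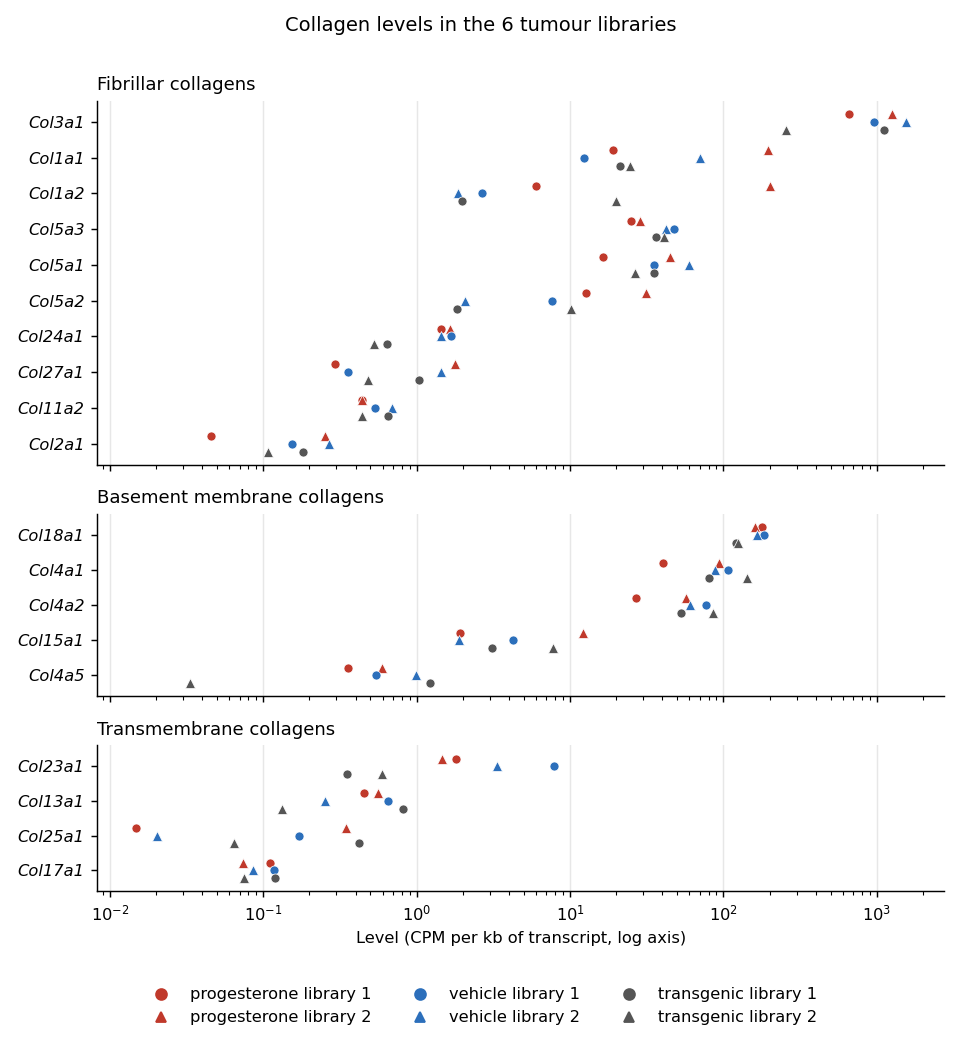
Level of each fibrillar, basement membrane and transmembrane collagen that passed the filter, in CPM per kb of transcript on a log axis; each point is 1 library, coloured by group. Col3a1 stands highest in all 6 libraries, Col1a2 spreads most, and the 2 vehicle libraries of Col23a1 lie to the right of the other 4.

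The 3 comparisons gave 0 collagens, and 0 genes of any kind, at an adjusted p under 0.05 by edgeR's quasi-likelihood test over all 13632 genes. At an unadjusted p under 0.05, progesterone against vehicle tumours gave 5 collagens (5.29% of all genes), progesterone against transgenic 6 (5.27%) and vehicle against transgenic 3 (5.57%). DESeq2 called 2 collagens between progesterone and vehicle tumours, Col5a3 and Col23a1 (0.550% of all genes). It called 1 between progesterone and transgenic tumours, Col24a1 (0.345%), and 2 between vehicle and transgenic tumours, Col23a1 and Col24a1 (0.484%). With limma-voom the calls were 0 in each comparison, with 4, 6 and 3 collagens at an unadjusted p under 0.05 in the order given. Every difference given below is therefore a measured value that did not pass the edgeR test, and log2 fold changes are given with their standard error.

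Fibrillar collagens were led by Col3a1 (ENSMUSG00000026043, chr1:45311538-45349706 on the plus strand), which encodes the only chain of type III collagen, the fibril of soft tissue and early scars. It had 3637 and 6934 CPM in progesterone tumours, 5311 and 8606 in vehicle tumours, and 6169 and 1414 in transgenic tumours. The low library was transgenic 2, and all 3 groups overlapped. Per kb of transcript, Col3a1 made up 54.7% and 48.9% of all collagen in progesterone tumours, 54.5% and 60.9% in vehicle tumours, and 63.2% and 25.0% in transgenic tumours.

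Type I collagen, the main fibril of skin, bone and scar, is built from chains of Col1a1 (ENSMUSG00000001506) and Col1a2 (ENSMUSG00000029661). Col1a1 had 114 and 1164 CPM in progesterone tumours, 73.1 and 415 in vehicle tumours, and 125 and 145 in transgenic tumours. Progesterone library 2 stood highest and the groups overlapped. The log2 fold change of Col1a1 between progesterone and vehicle tumours was 1.39 ± 1.06 (edgeR adjusted p = 0.999), and -1.10 without progesterone library 2. Col1a2 had 32.2 and 1082 CPM in progesterone tumours, 14.3 and 9.96 in vehicle tumours, and 10.5 and 107 in transgenic tumours. Both progesterone libraries were above both vehicle libraries, but library 2 stood far above library 1. The log2 fold change of Col1a2 between progesterone and vehicle tumours was 5.52 ± 1.71 (edgeR adjusted p = 0.932), and 1.41 without progesterone library 2. With no filter on low counts edgeR called it (adjusted p = 0.0114).

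Type V chains regulate the start and width of fibrils. Col5a1 had 138 and 379 CPM in progesterone tumours, 298 and 503 in vehicle tumours, and 298 and 224 in transgenic tumours, with all groups overlapping. Col5a2 (ENSMUSG00000026042), which lies 24.6 kb from Col3a1 on chromosome 1 in the opposite orientation, had 84.8 and 207 CPM in progesterone tumours, 50.6 and 13.7 in vehicle tumours, and 12.2 and 67.0 in transgenic tumours. Its progesterone libraries were above the other 4, with log2 fold changes of 2.17 ± 0.89 against vehicle (edgeR adjusted p = 0.939) and 1.88 ± 0.88 against transgenic tumours (edgeR adjusted p = 0.914). Leaving out 1 library gave 1.39 (without progesterone library 2) to 3.40 (without vehicle library 1) against vehicle, and 1.10 (without progesterone library 2) to 3.57 (without transgenic library 2) against transgenic tumours. Col5a3 (ENSMUSG00000004098) had 152 and 176 CPM in progesterone tumours, 290 and 260 in vehicle tumours, and 222 and 252 in transgenic tumours. Here the progesterone libraries were below the other 4, with little spread within a group. The log2 fold change of Col5a3 was -0.74 ± 0.17 against vehicle (edgeR adjusted p = 0.887; DESeq2 adjusted p = 0.00644) and -0.53 ± 0.17 against transgenic tumours (edgeR adjusted p = 0.914). The type V chains thus did not shift together: Col5a2 was higher and Col5a3 lower in both progesterone libraries than in both vehicle libraries.

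Col24a1 (ENSMUSG00000028197), a less common fibrillar collagen described in developing bone and eye, had 10.3 and 11.7 CPM in progesterone tumours, 12.01 and 10.3 in vehicle tumours, and 4.59 and 3.75 in transgenic tumours. The libraries of both ovariectomized groups lay together, above both transgenic libraries. Its log2 fold changes were 1.40 ± 0.31 for progesterone against transgenic tumours (edgeR adjusted p = 0.914; DESeq2 adjusted p = 0.0107) and 1.42 ± 0.31 for vehicle against transgenic tumours (edgeR adjusted p = 0.810; DESeq2 adjusted p = 0.00649). Between progesterone and vehicle tumours the value was -0.02 ± 0.30.

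The remaining fibrillar genes were low. Col27a1, found mainly in cartilage, had 2.24 and 13.5 CPM in progesterone tumours, 2.71 and 10.9 in vehicle tumours, and 7.93 and 3.67 in transgenic tumours. Col11a2, a chain of cartilage type XI collagen, had 2.36 and 2.36 CPM in progesterone tumours, 2.88 and 3.71 in vehicle tumours, and 3.52 and 2.36 in transgenic tumours. Col2a1, the main cartilage collagen, had 0.232 and 1.28 CPM in progesterone tumours, 0.789 and 1.38 in vehicle tumours, and 0.926 and 0.548 in transgenic tumours. Of these 3 genes, Col11a2 alone had progesterone libraries below both vehicle libraries, on 57 to 84 counts.

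Chains of the same protein kept their ratio in some collagens and not in others. Per kb of transcript, Col1a1 over Col1a2 was 3.18 and 0.970 in progesterone tumours, 4.62 and 37.6 in vehicle tumours, and 10.7 and 1.22 in transgenic tumours, a 38.7-fold range. The range was 11.1-fold without vehicle library 2. Type I collagen is known as a trimer with more Col1a1 than Col1a2 chains, and the ratios here ran from about equal levels to a large excess of Col1a1. Col5a1 over Col5a2 was 1.28 and 1.44 in progesterone tumours, 4.63 and 28.9 in vehicle tumours, and 19.2 and 2.63 in transgenic tumours. Its progesterone libraries were below the other 4. Col3a1 over Col1a1 ran from 6.35 in progesterone library 2 to 77.4 in vehicle library 1, and stayed above 1 in all 6 libraries.

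By contrast, Col4a1 over Col4a2 kept between 1.40 and 1.68, a 1.20-fold range, although each gene varied more than 3-fold between libraries. Col6a1 over Col6a2, chains of beaded filament type VI collagen, kept between 1.37 and 1.74. Col6a3, another chain of that collagen, over Col6a1 ran from 0.353 in transgenic library 2 to 0.941 in vehicle library 2, and from 0.642 without transgenic library 2. The per kb values use the transcript with the longest reading frame, a choice made after counts were seen. With the length of all annotated exons, Col1a1 over Col1a2 would run from 2.04 to 78.9, while the fold range within a pair does not depend on the length used.

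**Figure D3:**
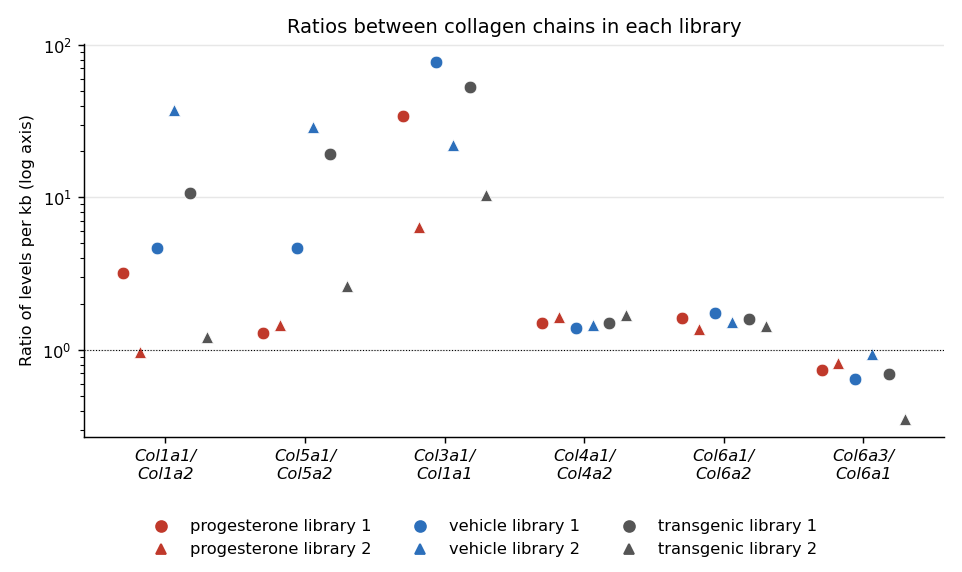
Ratio of the levels per kb of 2 collagen chains in each of the 6 libraries, on a log axis, with a dotted line at 1. Col4a1 over Col4a2 and Col6a1 over Col6a2 lie within 1.37 to 1.74 in each library, whereas Col1a1 over Col1a2 runs from 0.970 to 37.6.

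Basement membrane collagens were led by Col18a1 and the type IV pair. Col4a1 (ENSMUSG00000031502) and Col4a2 (ENSMUSG00000031503) are the type IV chains of most basement membranes and lie head to head on chromosome 8, with annotated gene bodies that overlap by 22 bases on opposite strands (chr8:11198423-11312826 and chr8:11312805-11449287). Col4a1 had 267 and 616 CPM in progesterone tumours, 709 and 579 in vehicle tumours, and 531 and 949 in transgenic tumours. Col4a2 had 174 and 366 CPM in progesterone tumours, 494 and 389 in vehicle tumours, and 343 and 550 in transgenic tumours. Progesterone library 1 was the lowest and transgenic library 2 the highest for both genes, and only for Col4a2 were both progesterone libraries below both vehicle libraries. The log2 fold change of Col4a2 between progesterone and vehicle tumours was -0.71 ± 0.38 (edgeR adjusted p = 0.959), and -0.28 without progesterone library 1. Whether counting used the strand is not given in the sources used here, and 0.29% of the annotated exon length of Col4a1 and 0.98% of that of Col4a2 lie opposite exons of the other strand.

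Col18a1 (ENSMUSG00000001435), the precursor of the angiogenesis inhibitor endostatin, was the steadiest collagen of the 3 classes. It had 994 and 904 CPM in progesterone tumours, 1021 and 922 in vehicle tumours, and 678 and 692 in transgenic tumours. As with Col24a1, the libraries of both ovariectomized groups were above both transgenic libraries. The log2 fold change of Col18a1 was 0.47 ± 0.16 for progesterone against transgenic tumours (edgeR adjusted p = 0.914) and 0.50 ± 0.16 for vehicle against transgenic tumours (edgeR adjusted p = 0.819).

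Col15a1, a relative of Col18a1 found at the outer face of basement membranes, had 9.85 and 62.5 CPM in progesterone tumours, 22.02 and 9.70 in vehicle tumours, and 16.0 and 40.1 in transgenic tumours. Col4a5, a type IV chain of kidney and other specialised membranes, had 2.24 and 3.72 CPM in progesterone tumours, 3.43 and 6.25 in vehicle tumours, and 7.67 and 0.211 in transgenic tumours. Both genes overlapped between all groups, and the low Col4a5 library, transgenic 2, rested on 5 counts.

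Transmembrane collagens were scarce, at 0.0855% to 0.503% of summed collagen level per kb, and Col23a1 (ENSMUSG00000063564) had the highest mean over the 6 libraries. In transgenic library 1 both Col13a1 (0.820 CPM per kb) and Col25a1 (0.424) were above Col23a1 (0.354). Col23a1 encodes a transmembrane collagen that is shed from the cell surface. It had 10.3 and 8.32 CPM in progesterone tumours, 44.6 and 18.9 in vehicle tumours, and 2.0003 and 3.37 in transgenic tumours. No group overlapped another: vehicle libraries were highest, progesterone libraries between, and transgenic libraries lowest. The log2 fold changes of Col23a1 were -1.77 ± 0.46 for progesterone against vehicle (edgeR adjusted p = 0.932; DESeq2 adjusted p = 0.0424), 1.79 ± 0.47 for progesterone against transgenic (edgeR adjusted p = 0.914), and 3.57 ± 0.50 for vehicle against transgenic tumours (edgeR adjusted p = 0.587; DESeq2 adjusted p = 2.55e-09). Without vehicle library 1, the higher of its pair, the first value was -1.03 and the last 2.82. With no filter on low counts edgeR called Col23a1 between progesterone and vehicle tumours (adjusted p = 0.0463) and between vehicle and transgenic tumours (adjusted p = 0.000282).

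The other 3 transmembrane genes did not follow Col23a1. Col13a1, a collagen of the neuromuscular junction and other cell contacts, had 1.43 and 1.78 CPM in progesterone tumours, 2.06 and 0.795 in vehicle tumours, and 2.59 and 0.421 in transgenic tumours. Col17a1, the collagen of hemidesmosomes in skin, had 0.618 and 0.414 CPM in progesterone tumours, 0.652 and 0.477 in vehicle tumours, and 0.667 and 0.421 in transgenic tumours. Col25a1, a collagen of neurons and muscle innervation, had 0.0386 and 0.910 CPM in progesterone tumours, 0.446 and 0.0530 in vehicle tumours, and 1.11 and 0.169 in transgenic tumours, on 1 to 30 counts. All 3 overlapped between groups in each comparison.

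Among the other classes, Col7a1, the anchoring fibril collagen under squamous epithelium, had 74.0 and 154 CPM in progesterone tumours, 188 and 231 in vehicle tumours, and 160 and 159 in transgenic tumours. Progesterone libraries were below the other 4, with a log2 fold change of -0.88 ± 0.32 against vehicle tumours (edgeR adjusted p = 0.939), and -0.45 without progesterone library 1. Col16a1, a fibril-associated collagen, had 373 and 373 CPM in progesterone tumours, 253 and 438 in vehicle tumours, and 253 and 203 in transgenic tumours. Both progesterone libraries were above both transgenic ones, with a log2 fold change of 0.71 ± 0.27 for progesterone against transgenic tumours (edgeR adjusted p = 0.914).

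All 4 beaded filament genes tested, chains of type VI collagen around cells, were lower in progesterone than in vehicle tumours (log2 fold changes -0.45 to -0.23), and the groups overlapped for each of the 4. All 4 were higher in vehicle than in transgenic tumours (0.32 to 1.09), with 3 not overlapping (17.9% of all genes). Col6a3 had 349 and 1056 CPM in progesterone tumours, 638 and 1277 in vehicle tumours, and 577 and 321 in transgenic tumours, with both vehicle libraries above both transgenic ones (log2 fold change 1.09 ± 0.57, edgeR adjusted p = 0.888). Col14a1, a fibril-associated collagen of dense connective tissue, had 7.22 and 85.0 CPM in progesterone tumours, 12.1 and 7.95 in vehicle tumours, and 9.93 and 4.51 in transgenic tumours. One library, progesterone 2, stood above the other 5. The remaining 10 collagens that passed the filter (Col6a1, Col6a2, Col6a4, Col8a1, Col9a3, Col12a1, Col19a1, Col20a1, Col26a1 and Col28a1) had between 0 and 550 CPM. The highest of them, Col6a1, averaged 359 ± 235 CPM in progesterone, 477 ± 104 in vehicle and 355 ± 21.3 in transgenic tumours (SD, n = 2 each). Col6a2 averaged 242 ± 180 CPM in progesterone, 285 ± 87.2 in vehicle and 227 ± 30.6 in transgenic tumours (SD, n = 2 each). Col8a1, a short-chain collagen of vessel walls and cornea, averaged 112 ± 45.4 CPM in progesterone, 119 ± 44.1 in vehicle and 128 ± 20.2 in transgenic tumours (SD, n = 2 each). These 3 genes overlapped between progesterone tumours and both other groups. Col12a1, which binds to fibril surfaces, averaged 78.5 ± 82.4 CPM in progesterone, 34.1 ± 19.3 in vehicle and 49.8 ± 29.3 in transgenic tumours (SD, n = 2 each), so that its spread within the progesterone pair exceeded its mean. The other 6 averaged at most 4.16 CPM in any group.

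As shares of summed collagen level per kb, fibrillar collagens made up 61.5% and 68.8% in progesterone tumours, 60.6% and 68.0% in vehicle tumours, and 68.8% and 37.2% in transgenic tumours. Basement membrane collagens made up 20.7% and 12.7% in progesterone tumours, 21.2% and 12.4% in vehicle tumours, and 14.8% and 35.4% in transgenic tumours. Transgenic library 2 stood apart from the other 5 in both shares, and all groups overlapped. Its summed basement membrane level was 360 CPM per kb, within the 247 to 371 of the other 5, while its summed fibrillar level was 378, against 735 to 1754 in the other 5. Col3a1 made up most of each fibrillar sum, with 254 CPM per kb in transgenic library 2 and 654 to 1547 in the other 5. Of the fibrillar genes that passed the filter, only Col3a1 and Col24a1 were lowest in transgenic library 2, so the low sum was not shared across the class.

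**Figure D4:**
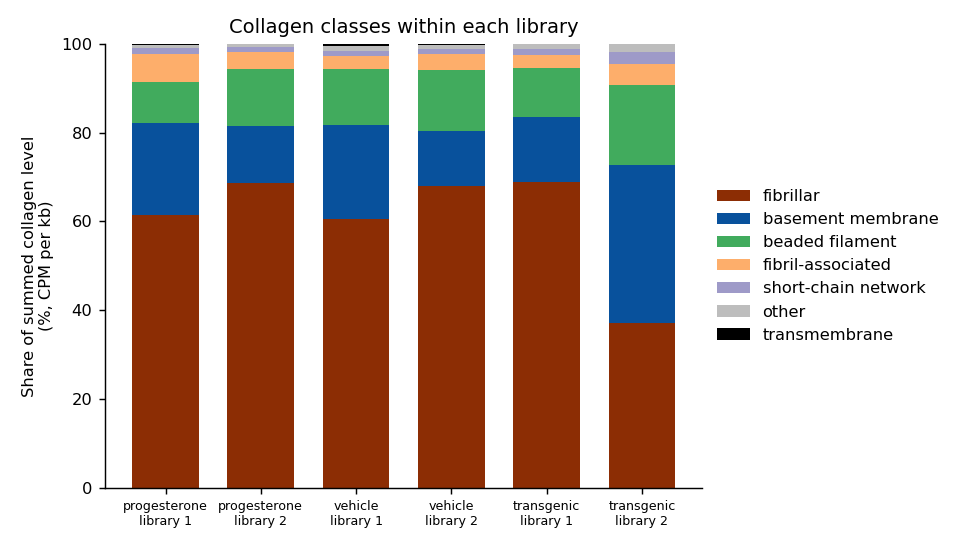
Share of each collagen class in the summed collagen level (CPM per kb, in percent) of each of the 6 libraries. Fibrillar collagens take 60.6% to 68.8% in 5 libraries and 37.2% in transgenic library 2. Col3a1 alone, not drawn separately, takes 48.9% to 63.2% in the same 5 and 25.0% in transgenic library 2.

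Set against each other by comparison, the 3 classes gave these median log2 fold changes over the members that passed the filter. Between progesterone and vehicle tumours the median was -0.21 for the 10 fibrillar, -0.54 for the 5 basement membrane and 0.010 for the 4 transmembrane genes, against 0.0065 over all genes tested. Between progesterone and transgenic tumours it was 0.46, -0.41 and 0.0029 in the same order of classes, against 0.0061 over all genes. Between vehicle and transgenic tumours it was 0.38, -0.016 and -0.0068, against -0.011 over all genes. Leaving out progesterone library 1 turned the fibrillar median between progesterone and vehicle tumours to 0.16, and brought the basement membrane median to -0.11. Leaving out progesterone library 2 turned the fibrillar median between progesterone and transgenic tumours to -0.48. Within each class the members differed more than the medians did: fibrillar values ran from -0.74 to 5.52 between progesterone and vehicle tumours. Between progesterone and transgenic tumours the basement membrane median was the value of Col4a5 (-0.41 ± 1.19), which had 5 counts in transgenic library 2. Beside it, Col4a1 and Col4a2 had -0.74 and -0.73, and Col15a1 and Col18a1 had 0.37 and 0.47.

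Counted by libraries, the progesterone and vehicle groups did not overlap for 9 of 33 collagens (36.2% of all genes), with 2 higher (18.5%) and 7 lower (17.8%) in progesterone tumours. The 2 higher were Col1a2 and Col5a2. The 7 lower were Col4a2, Col5a3, Col7a1, Col9a3, Col11a2, Col20a1 and Col23a1. Progesterone and transgenic tumours did not overlap for 8 collagens (29.0% of all genes), with 5 higher (14.5%) and 3 lower (14.5%). The 5 higher were Col5a2, Col16a1, Col18a1, Col23a1 and Col24a1, and the 3 lower Col5a3, Col7a1 and Col11a2. Col11a2 was apart only by 2.358 CPM in progesterone library 2 against 2.360 in transgenic library 2. Vehicle and transgenic tumours did not overlap for 8 collagens (35.6% of all genes), with 8 higher in vehicle (17.9%) and 0 lower (17.7%). Those 8 were Col5a3, Col6a1, Col6a3, Col6a4, Col7a1, Col18a1, Col23a1 and Col24a1. Over both directions the collagen share was 27.3% between progesterone and vehicle tumours and 24.2% in each of the other comparisons, below the share of all genes. The counts of progesterone against vehicle and of vehicle against transgenic tumours share the 2 vehicle libraries. By sign alone, 12 of 33 collagens had a positive log2 fold change between progesterone and vehicle tumours (51.1% of all genes) and 21 a negative one (48.9%). Between progesterone and transgenic tumours 19 were positive (51.0% of all genes) and 14 negative (49.0%). Between vehicle and transgenic tumours 22 were positive (48.5%) and 11 negative (51.5%).

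**Figure D5:**
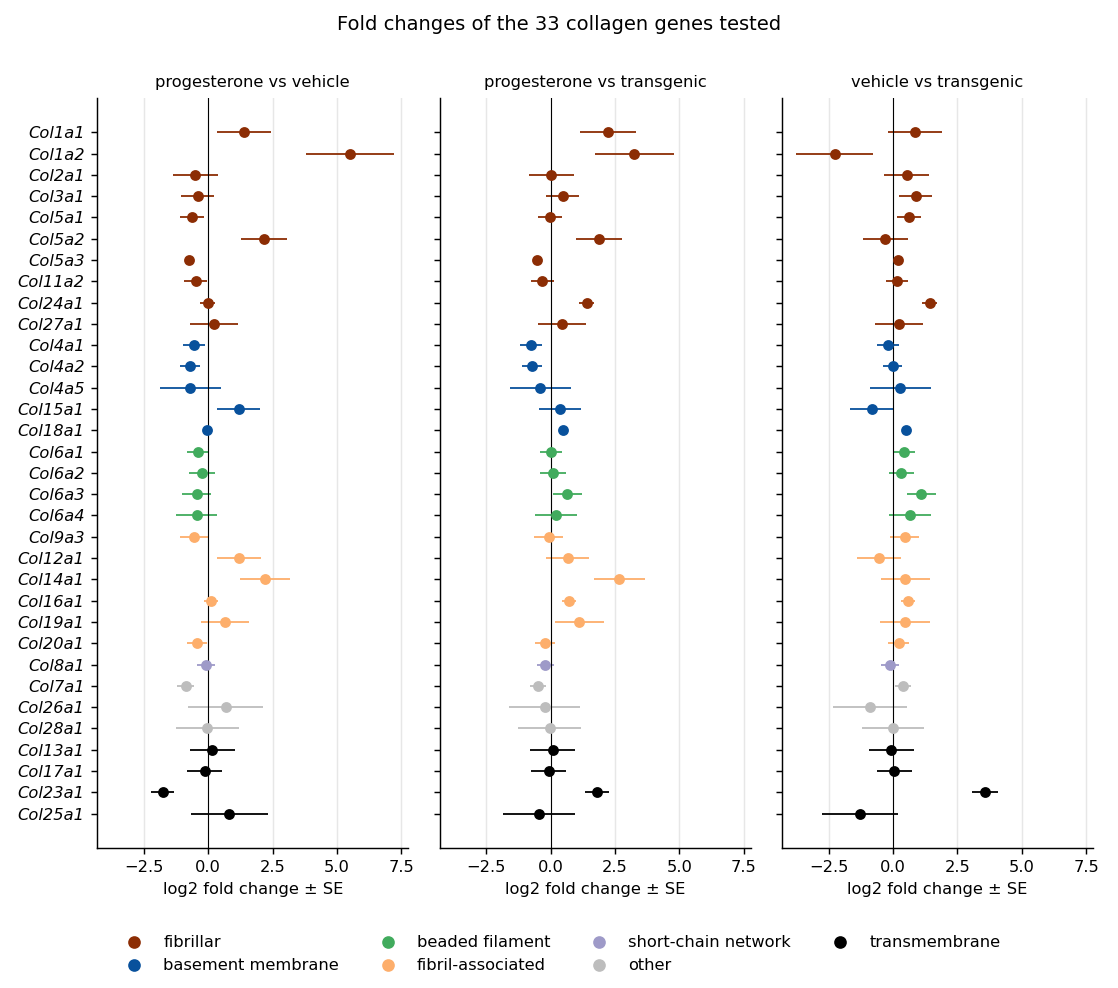
Log2 fold changes with standard errors of the 33 collagens that passed the filter, in each of the 3 comparisons, coloured by class; positive values are higher in the group named first. None passed the edgeR test, and Col1a2 has both the largest value between progesterone and vehicle tumours (5.52) and the widest error (1.71).

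Collagen promoters were compared for 3 common core motifs, each searched on both strands in the 250 bases before the start. The RefSeq table of GRCm38.p6 held promoters for 35 of the 44 genes. The letters CCAAT occurred in 13 of 38 collagen promoters (34.2%) and in 33.8% of 32851 promoters of all genes. The letters TATAAA occurred in 5 of 38 (13.2%) and 12.4%, and GGGCGG in 22 of 38 (57.9%) and 32.7%. Each motif was counted whether or not it overlapped another. The sequences given here, chosen after the values were seen, are the windows of the most abundant collagen, Col3a1 (chr1:45311288-45311537, plus strand), and of the members with the smallest p in the 3 comparisons: Col5a3 (chr9:20815068-20815317, minus strand), Col23a1 (chr11:51289670-51289919, plus strand) and Col24a1 (chr3:145292222-145292471, plus strand). Capitals mark the 3 motifs on either strand, and each sequence runs 5′ to 3′ on the strand of its gene.
Col3a1: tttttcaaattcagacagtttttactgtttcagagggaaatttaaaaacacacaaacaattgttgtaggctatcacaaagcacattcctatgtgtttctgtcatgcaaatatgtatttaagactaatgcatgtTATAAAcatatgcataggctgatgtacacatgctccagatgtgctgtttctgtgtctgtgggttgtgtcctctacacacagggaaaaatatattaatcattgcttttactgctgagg
Col5a3: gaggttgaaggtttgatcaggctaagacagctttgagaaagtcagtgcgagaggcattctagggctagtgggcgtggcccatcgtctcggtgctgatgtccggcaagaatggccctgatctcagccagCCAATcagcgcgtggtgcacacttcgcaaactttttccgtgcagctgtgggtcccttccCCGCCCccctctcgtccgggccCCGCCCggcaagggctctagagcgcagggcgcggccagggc
Col23a1: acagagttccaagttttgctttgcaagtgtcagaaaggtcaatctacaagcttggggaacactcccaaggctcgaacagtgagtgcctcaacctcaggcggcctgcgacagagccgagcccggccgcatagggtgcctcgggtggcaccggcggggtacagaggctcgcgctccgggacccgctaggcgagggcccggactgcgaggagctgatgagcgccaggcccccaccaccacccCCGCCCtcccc
Col24a1: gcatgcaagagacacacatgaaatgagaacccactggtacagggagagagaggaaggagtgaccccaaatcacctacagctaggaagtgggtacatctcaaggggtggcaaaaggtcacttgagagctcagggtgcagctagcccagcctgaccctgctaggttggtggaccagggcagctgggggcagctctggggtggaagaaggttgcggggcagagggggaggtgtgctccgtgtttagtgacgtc
The Col3a1 window holds TATAAA 117 bases before the start and no GGGCGG. The Col5a3 window holds CCAAT 122 bases before the start and 2 GGGCGG matches, the Col23a1 window 1 GGGCGG match, and the Col24a1 window none of the 3. Col23a1 and Col24a1, which both had their lowest levels in transgenic tumours, thus share none of the 3 motifs in this window.

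Genes that act on collagen were taken from 7 lists, of which 0 genes passed the edgeR test in any comparison. Of 20 genes for chain modification and folding, the groups did not overlap for 10 that were lower in progesterone than in vehicle tumours (17.8% of all genes) and for 0 that were higher (18.5%). The median log2 fold change of the list was -0.18, with 5 genes at an unadjusted p under 0.05 (5.29% of all genes). Between vehicle and transgenic tumours 7 did not overlap as higher (17.9% of all genes) and 1 as lower (17.7%), with a median of 0.23. Progesterone and transgenic tumours did not overlap for 0 as higher (14.5%) and 0 as lower (14.5%), with a median of -0.0042. The counts of progesterone against vehicle and of vehicle against transgenic tumours rest on the same 2 vehicle libraries. P4ha1, a prolyl hydroxylase subunit, had 203 and 235 CPM in progesterone tumours, 315 and 355 in vehicle tumours, and 233 and 188 in transgenic tumours. Plod1, a lysyl hydroxylase, had 187 and 169 CPM in progesterone tumours, 280 and 325 in vehicle tumours, and 217 and 138 in transgenic tumours. Vehicle libraries were the highest for both genes. P3h2, a prolyl hydroxylase that acts on type IV collagen, had 4.98 and 10.1 CPM in progesterone tumours, 14.3 and 20.3 in vehicle tumours, and 10.4 and 8.18 in transgenic tumours. Their log2 fold changes between progesterone and vehicle tumours were -0.61 ± 0.18, -0.77 ± 0.24 and -1.19 ± 0.41, with edgeR adjusted p of 0.932, 0.932 and 0.935.

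Of 5 cross-linking enzymes, 4 had higher fitted values in progesterone than in vehicle tumours (51.1% of all genes) and 5 in progesterone than in transgenic tumours (51.0%). Progesterone and vehicle tumours did not overlap for 0 as higher (18.5%) and for 1, Loxl3, as lower (17.8%). Progesterone and transgenic tumours did not overlap for 1, again Loxl3, as higher (14.5%) and for 0 as lower (14.5%). Lox, the lysyl oxidase that cross-links fibrils, had 1.39 and 80.5 CPM in progesterone tumours, 1.23 and 1.59 in vehicle tumours, and 3.56 and 8.43 in transgenic tumours. Loxl1 had 4.75 and 42.7 CPM in progesterone tumours, 1.13 and 6.04 in vehicle tumours, and 2.22 and 6.57 in transgenic tumours. As for Col1a1 and Col1a2, progesterone library 2 was the highest of the 6 for both. Loxl3 had 200 and 210 CPM in progesterone tumours, 227 and 261 in vehicle tumours, and 109 and 187 in transgenic tumours.

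Of 8 genes for propeptide removal, 0 were at an unadjusted p under 0.05 by edgeR in any comparison. Vehicle and transgenic tumours did not overlap for 4 that were higher in vehicle (17.9% of all genes) and 0 that were lower (17.7%). For progesterone against vehicle tumours 0 did so as higher (18.5%) and 1 as lower (17.8%). For progesterone against transgenic tumours 1 did so as higher (14.5%) and 1 as lower (14.5%). Adamts2, which removes the amino-terminal propeptide of fibrillar collagens, had 3.94 and 45.8 CPM in progesterone tumours, 6.48 and 4.35 in vehicle tumours, and 4.48 and 11.2 in transgenic tumours. Adamts14, of the same subfamily, had 272 and 171 CPM in progesterone tumours, 327 and 206 in vehicle tumours, and 167 and 182 in transgenic tumours. Progesterone library 2 was the highest for Adamts2 but not for Adamts14. Tll2, a tolloid-like protease, stayed at 4.77 CPM or less in each library.

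Of 7 fibril-binding proteoglycans tested, 2 had a positive and 5 a negative log2 fold change between progesterone and vehicle tumours, 1 of them at an unadjusted p under 0.05 (5.29% of all genes). Prelp had 0.270 and 19.8 CPM in progesterone tumours, 0.103 and 0.106 in vehicle tumours, and 0.259 and 0.801 in transgenic tumours. Dcn, decorin, had 738 and 617 CPM in progesterone tumours, 789 and 971 in vehicle tumours, and 664 and 102 in transgenic tumours, with transgenic library 2 lowest as for Col3a1. Kera, keratocan, ran from 0.0843 CPM in transgenic library 2 to 17.2 in vehicle library 2.

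Of 8 collagen receptors tested, 3 had a positive and 5 a negative log2 fold change between progesterone and vehicle tumours, 1 of them at an unadjusted p under 0.05 (5.29% of all genes). They included Itgb1, the beta subunit of the collagen-binding integrins, with 924 and 1025 CPM in progesterone tumours, 1462 and 1303 in vehicle tumours, and 1148 and 1209 in transgenic tumours. Its progesterone libraries were below the other 4 (log2 fold change against vehicle -0.50 ± 0.16, edgeR adjusted p = 0.932). Ddr2, a receptor kinase for fibrillar collagen, had 319 and 372 CPM in progesterone tumours, 377 and 370 in vehicle tumours, and 288 and 234 in transgenic tumours. Itga2 had 27.9 and 31.7 CPM in progesterone tumours, 53.1 and 26.4 in vehicle tumours, and 24.4 and 10.2 in transgenic tumours.

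Of 9 collagen breakdown genes, 4 had a positive and 5 a negative log2 fold change between progesterone and vehicle tumours, 2 of them at an unadjusted p under 0.05 (5.29% of all genes). Ctsk, cathepsin K, had 174 and 126 CPM in progesterone tumours, 7.03 and 88.7 in vehicle tumours, and 10.3 and 15.9 in transgenic tumours. Mmp13, a collagenase, had 13.4 and 15.8 CPM in progesterone tumours, 29.7 and 98.7 in vehicle tumours, and 45.7 and 15.0 in transgenic tumours. Both progesterone libraries were thus above both vehicle libraries for Ctsk and below them for Mmp13. Of the 9 genes, 3 did not overlap as higher (18.5% of all genes), Ctsk, Mmp2 and Mmp9, and 2 as lower (17.8%), Mmp13 and Mmp14. Mmp2 had 5.80 and 142 CPM in progesterone tumours, 2.40 and 4.35 in vehicle tumours, and 2.52 and 11.3 in transgenic tumours. Mmp1a, another collagenase, had 4.56 and 0.993 CPM in progesterone tumours, 23.6 and 3.60 in vehicle tumours, and 1.67 and 0.801 in transgenic tumours.

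Basement membrane partners of type IV collagen included Hspg2, perlecan, with 1221 and 898 CPM in progesterone tumours, 1308 and 1380 in vehicle tumours, and 927 and 808 in transgenic tumours. The linker Nid1 had 825 and 918 CPM in progesterone tumours, 1617 and 1129 in vehicle tumours, and 1179 and 639 in transgenic tumours. For 4 of the 6 members tested, Nid1 and Nid2 among them, both progesterone libraries were below both vehicle libraries (17.8% of all genes). Nid2 had 10.6 and 28.2 CPM in progesterone tumours, 43.6 and 30.3 in vehicle tumours, and 33.8 and 36.4 in transgenic tumours.

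Markers of collagen-making cells varied along with several of these results. Fibroblast markers, 11 of 12 in the table and all 11 tested, summed to 1577 and 1762 CPM in progesterone tumours, 1602 and 2701 in vehicle tumours, and 1522 and 348 in transgenic tumours, so that the library with the least Col3a1 also had the lowest sum. Most of each sum came from Dcn, Lum, Dpt and Pdgfra. Of the 11, 7 had a positive log2 fold change between progesterone and vehicle tumours, 10 between progesterone and transgenic tumours and 6 between vehicle and transgenic tumours. Dcn and Lum are also proteoglycans of the list above, and of the 11 only Mfap5 was at 0 in a library, vehicle 2. Mfap5 had 0.850 and 37.2 CPM in progesterone tumours, 0.206 and 0 in vehicle tumours, and 0.222 and 2.57 in transgenic tumours. Pi16 had 3.44 and 94.2 CPM in progesterone tumours, 3.40 and 3.71 in vehicle tumours, and 3.11 and 1.22 in transgenic tumours. Progesterone library 2, the highest for Col1a1, Col1a2, Col5a2 and Col14a1, was the highest for 6 of the 11 fibroblast genes, Fbln1 (33.8 CPM), Mfap5 and Pi16 among them. The highest library was vehicle 2 for Pdgfra, Dcn and Lum, progesterone 1 for Dpt and transgenic 1 for Fap, and transgenic 2 was the lowest for 7 of the 11. The rest went the other way: in transgenic library 2, Thy1 (19.3 CPM), Postn (46.3), Mfap5 (2.57) and Clec3b (0.674) were above every library but progesterone 2. The part of fibroblast content in the collagen levels was not tested.

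Endothelial markers, all 10 tested, summed to 121 and 280 CPM in progesterone tumours, 270 and 270 in vehicle tumours, and 268 and 324 in transgenic tumours, with none at 0. The lowest and highest sums were in the same libraries as for Col4a1 and Col4a2. Progesterone library 1 was the lowest for each of the 10, and transgenic library 2 the highest for 5. Between progesterone and vehicle tumours 7 had a negative log2 fold change and 3 (Tek, Esam and Kdr) a positive one, and 3 did not overlap as lower (17.8% of all genes). Between vehicle and transgenic tumours 9 were negative and 1, Vwf, positive. There 6 did not overlap as lower (17.7% of all genes) and 1 as higher (17.9%). Between progesterone and transgenic tumours 9 were negative and 1, Tek, positive, and 4 did not overlap as lower (14.5% of all genes). Vwf had 12.9 and 19.5 CPM in progesterone tumours, 51.5 and 56.7 in vehicle tumours, and 27.7 and 29.2 in transgenic tumours. Cldn5 had 7.34 and 7.74 CPM in progesterone tumours, 15.4 and 16.7 in vehicle tumours, and 17.5 and 15.8 in transgenic tumours. Pericyte and smooth muscle markers summed to 90.5 and 253 CPM in progesterone tumours, 105 and 162 in vehicle tumours, and 112 and 193 in transgenic tumours, with Cnn1 at 0 in progesterone library 1. Macrophage markers summed to 946 and 1129 CPM in progesterone tumours, 601 and 615 in vehicle tumours, and 378 and 926 in transgenic tumours. The part of these cells in the basement membrane results was not tested.

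Markers of other cells that could come from beside the tumour differed in level. Skeletal muscle markers reached at most 16.7 CPM and adipocyte markers 31.3 CPM in any library. Keratinocyte markers summed to less than either maximum, with Krt5 and Krt14 at 0 in 5 of the 6 libraries. Of the adipocyte markers, Fabp4 gave nearly all of the sum, with 29.6 CPM in progesterone library 2. Adipoq, Plin1, Lep, Cfd and Cidec each stayed at 0.621 CPM or less in each library. Schwann cell markers ran from 38.7 to 113 CPM, nearly all of it from Mbp. Cartilage and bone markers summed to 97.7 to 158 CPM, above the pericyte and smooth muscle sum in progesterone library 1, vehicle library 1 and transgenic library 1. Nearly all of it came from Sox9 and Runx2, and Acan was at 0 in 5 of the 6 libraries.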

How the data were processed

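Per the labels' protocols, RNA of mouse tumours was sequenced as 6 libraries from a directional kit. The deposited table holds raw counts per gene, and the submitters' processing notes name HISAT2, HTSeq, DESeq and GRCm38.p6, with no versions and no strand setting for the counting. Of 19288 gene IDs, 19284 were in the reference annotation. Library totals ran from 19526775 to 30083925 counts.

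Counts of all genes were fitted with edgeR 4.0.16 in R 4.3.3 by its quasi-likelihood test, after filterByExpr (13632 genes kept) and TMM scaling, with 1 model of the 3 groups and 3 residual degrees of freedom. P-values were adjusted over all genes tested by Benjamini-Hochberg, with a threshold of 0.05. The filter keeps genes by their level in the groups, so members that passed are not all members. Levels are TMM-scaled CPM, and levels per kb divide by the transcript with the longest reading frame. Alternatives were DESeq2 1.42.0, limma-voom (limma 3.58.1), other scalings, no filter, only the groups compared, a replicate block and each library left out. Tables were made with Python 3.11.15 and pandas 2.3.3. The scripts were tested on simulated data.

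The members, gene lists and tests were chosen with earlier results of these data known. Named genes were all fibrillar, basement membrane and transmembrane members that passed the filter, over all classes the 5 members with the smallest p in each comparison, and up to 3 genes by smallest p of each pathway list and of marker lists that move with a result. The length used for levels per kb, the crossed block, the spreads and ratios with a library left out, and the promoters were chosen after seeing the data. Promoter windows are RefSeq's for GRCm38.p6. Windows were printed only where they hold 0 annotated exon bases, and the motif shares were counted without that filter.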

Additional observations from a re-analysis of the deposited data

How the results depend on the processing

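The count of genes called at an adjusted p under 0.05 depended on the tool and on the filter. DESeq2 called 75 genes, 2 of them collagens, between progesterone and vehicle tumours, 47 with 1 collagen between progesterone and transgenic tumours, and 66 with 2 collagens between vehicle and transgenic tumours. With no filter on low counts, edgeR called 92 with 2 collagens, 28 with 0 and 12 with 1 in the same order of comparisons. Counts stayed at 0 with limma-voom, DESeq2's size factors in edgeR, upper quartile scaling, a fit to the 2 groups compared only, and each library left out in turn (range 0 to 0). The cause was not tested.

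Leaving out 1 library moved the fibrillar median over -0.89 to 0.16 between progesterone and vehicle tumours, -0.48 to 1.11 between progesterone and transgenic tumours and 0.14 to 0.91 between vehicle and transgenic tumours. Leaving out 1 library moved the basement membrane median over -1.10 to -0.11 between progesterone and vehicle tumours, -1.36 to -0.098 between progesterone and transgenic tumours and -0.32 to 0.28 between vehicle and transgenic tumours. Leaving out 1 library moved the transmembrane median over -0.82 to 0.56 between progesterone and vehicle tumours, -0.53 to 1.46 between progesterone and transgenic tumours and -0.55 to 1.19 between vehicle and transgenic tumours. The crossed block was not run for the medians. Under the other settings these medians moved by less than the spread between replicates, but between progesterone and transgenic tumours the basement membrane median was -0.030 with limma-voom and -0.055 with the replicate block, and the fibrillar median 0.16 with the block, against -0.41 and 0.46. Between vehicle and transgenic tumours the block gave a fibrillar median of 0.20, and limma-voom a transmembrane median of 0.21. Of 69 named log2 fold changes, 34 kept their direction in every setting and 35 reversed in at least 1, of which 23 did so only on leaving out a library. On leaving out 1 library, between progesterone and vehicle tumours the log2 fold changes ran from -1.10 to 3.12 for Col1a1, -2.19 to 0.25 for Col2a1, -1.45 to 0.14 for Col6a3 and -0.36 to 1.001 for Col13a1. Between the same tumours they ran from -0.47 to 3.07 for Col14a1, -0.69 to 1.97 for Col15a1, -0.24 to 0.56 for Col16a1 and -0.46 to 0.12 for Col17a1. They also ran from -0.11 to 0.036 for Col18a1, -0.13 to 0.085 for Col24a1, -2.62 to 3.02 for Col25a1 and -1.59 to 1.53 for Col27a1. Between progesterone and transgenic tumours the log2 fold changes ran from -0.24 to 3.11 for Col1a1, -0.86 to 5.72 for Col1a2, -1.65 to 0.79 for Col2a1 and -0.23 to 1.90 for Col3a1. Between the same tumours they ran from -1.36 to 3.79 for Col4a5, -0.92 to 0.53 for Col5a1, -0.36 to 1.23 for Col6a3 and -0.69 to 1.91 for Col13a1. They also ran from -1.50 to 1.17 for Col15a1, -0.40 to 0.29 for Col17a1, -3.89 to 1.45 for Col25a1 and -1.37 to 1.21 for Col27a1. Between vehicle and transgenic tumours the log2 fold changes ran from -0.88 to 1.63 for Col1a1, -3.13 to 0.22 for Col1a2, -0.56 to 0.28 for Col4a1 and -0.32 to 0.37 for Col4a2. Between the same tumours they ran from -0.66 to 4.49 for Col4a5, -1.52 to 1.41 for Col5a2, -0.093 to 0.48 for Col11a2 and -0.92 to 1.76 for Col13a1. They also ran from -0.23 to 0.43 for Col17a1, -3.47 to 0.62 for Col25a1 and -1.10 to 0.92 for Col27a1.

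With upper quartile scaling, the log2 fold change between progesterone and vehicle tumours turned to 0.003 for Col18a1 and 0.018 for Col24a1. With upper quartile scaling, the log2 fold change between progesterone and transgenic tumours turned to 0.010 for Col5a1. With limma-voom, the log2 fold change between progesterone and transgenic tumours turned to -0.030 for Col15a1, -0.021 for Col27a1, -0.40 for Col2a1 and 1.01 for Col4a5. With limma-voom, the log2 fold change between vehicle and transgenic tumours turned to 0.32 for Col13a1, -0.15 for Col27a1, 0.012 for Col4a2 and 0.047 for Col5a2. The labels do not say whether the replicate numbers pair libraries. With 2 libraries a group, the correlations given here cannot decide it. Deviations of libraries with the same number correlated at -0.125 between progesterone and vehicle tumours. They correlated at -0.174 between progesterone and transgenic and 0.080 between vehicle and transgenic tumours. With that number as a block, and with the progesterone numbers crossed (chosen after seeing the data), edgeR called 0 genes in each comparison. With the replicate number as a block, the log2 fold change between progesterone and transgenic tumours turned to 0.076 for Col25a1, -0.23 for Col27a1 and -0.30 for Col2a1. With the replicate number as a block, the log2 fold change between vehicle and transgenic tumours turned to 0.097 for Col13a1, -0.36 for Col27a1, 0.067 for Col4a2 and 0.16 for Col5a2. With 2 libraries a group, leaving one out leaves a lone library that is assumed to vary like the rest, and genes at a few counts, such as Col25a1, are limited by depth.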
